A study of Homo sapiens with 4 samples.

Results

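The ATF4 arm of the integrated stress response, with serine and amino acid supply, was represented by 39 genes, out of 22411 genes with a transcript cluster of 1 symbol. They were chosen by gene name, as 7 regulators, 3 stress outputs, 18 enzymes and 11 amino acid transporters, and each was read from the transcript cluster that carries only its symbol. Where a gene has several such clusters the rule takes the one of highest mean, but no member had more than 1, so no measured value decided between clusters. Of the 39 genes, 37 had a cluster. MTHFD1L and GPT2 lacked a cluster of their own symbol alone, and they were not analysed here. Genes with a mean over the 4 arrays above 4.29 log2 units, the 30th percentile, were tested. VLDLR and CBS lay below this level filter, which left 35 tested members.

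HCT116, an established human colon cancer cell line whose beta-catenin is itself activated by mutation, was transfected in both groups with 50 nM siRNA and the reagent Lipofectamine RNAiMAX and collected after 48 h. The first group, labelled si(-) and control, received a control siRNA, and the second, labelled siCTNNB1, an siRNA against CTNNB1, the gene for beta-catenin. Each group had 2 biological replicates with 1 array each, and the labels do not say whether replicates came from separate cultures. The labels give neither the siRNA sequences nor their number, so effects of the silencing and other effects of that siRNA cannot be told apart.

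ATF4 is a transcription factor whose protein is made from its mRNA mainly when the initiation factor eIF2 is phosphorylated, which happens when amino acids are scarce or unfolded proteins build up in the endoplasmic reticulum. With partners such as C/EBP proteins it binds composite elements and raises the genes of asparagine and serine synthesis, of mitochondrial folate metabolism and of amino acid import. Serine made from glycolysis feeds glycine and folate-bound carbon units, which proliferating colon cancer cells use for purines and thymidylate. Feedback factors such as CHOP (encoded by DDIT3) and TRIB3 belong to the same response and are often read as signs of strong stress.

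The targeted gene was lower in both arrays labelled siCTNNB1, with CTNNB1 at 6.50 and 6.65 log2 units against 10.06 and 10.20 in the controls. Across the tested genes the 2 replicates of each group correlated with r of 0.997, a description over genes that are not independent. The epithelial genes EPCAM, KRT8, KRT18 and KRT19 lay between 10.50 and 13.71 log2 units on all 4 arrays. The intestinal genes KRT20, CDX1, CDX2 and VIL1 lay under the level filter, whereas the remaining markers of this list of 10, CDH1 and LGALS4, passed it. Of 6 tested epithelial markers 4 rose (66.7%, against 14.2% of all tested genes), 2 of them by at least 1.5-fold, and none fell. Of the leukocyte, endothelial and fibroblast markers, 11 were measured, 6 of them below the level filter. Of the 5 tested, CD68, which also encodes a lysosomal protein of other cells, was the only one called, with a rise of 1.64 log2 units (SE 0.08, adjusted p 0.00033 in limma, a linear model that pools the spread across genes, with adjustment over all tested genes). PTPRC, CD14 and PECAM1, which define leukocytes and endothelium, were among those below the filter, between 2.76 and 3.82 log2 units. The uncalled ones above it were 1 leukocyte, 1 endothelial and 2 fibroblast markers. What part other cells could have in the results was not tested beyond these values. Array medians over all clusters lay between 4.58 and 4.66 log2 units.

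The ATF4 mRNA itself, PHGDH and PSAT1 of serine synthesis, the asparagine synthetase gene ASNS, the mitochondrial folate enzyme MTHFD2 and the leucine carrier SLC7A5 fell after CTNNB1 siRNA, while DDIT3, TRIB3 and PSPH, the gene of the last step of serine synthesis, were not called. Of the 35 tested members, 18 fell (51.4%), 1 rose and 16 were not called at an adjusted p under 0.05 in limma. Over all 15679 tested genes 16.1% were called lower, 14.2% higher and 30.3% in either direction. A fall of at least 1.5-fold was called for 12 members, against 8.21% of all tested genes, and of at least 2-fold for 7, against 2.83%. No member rose by 1.5-fold, against 7.45% of all tested genes. The median change of the 35 members was -0.325 log2 units, and that of all tested genes was -0.015. Both CTNNB1 siRNA arrays lay below both control arrays for 23 members (65.7%) and above them for 3, while for all tested genes these shares were 34.2% and 28.8%. Every tested member had both group means above the level filter. The members were chosen with earlier results of these data known, so these shares describe the genes and are not a test of the group.

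In total RNA of a whole culture, a lower level in every cell and a lower level in some of the cells cannot be told apart. With any 1 array left out, none of the 15679 genes passed the adjusted threshold in limma (between 4732 and 4930 had an unadjusted p under 0.05), and all 19 called members kept their direction.

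**Figure D1:**
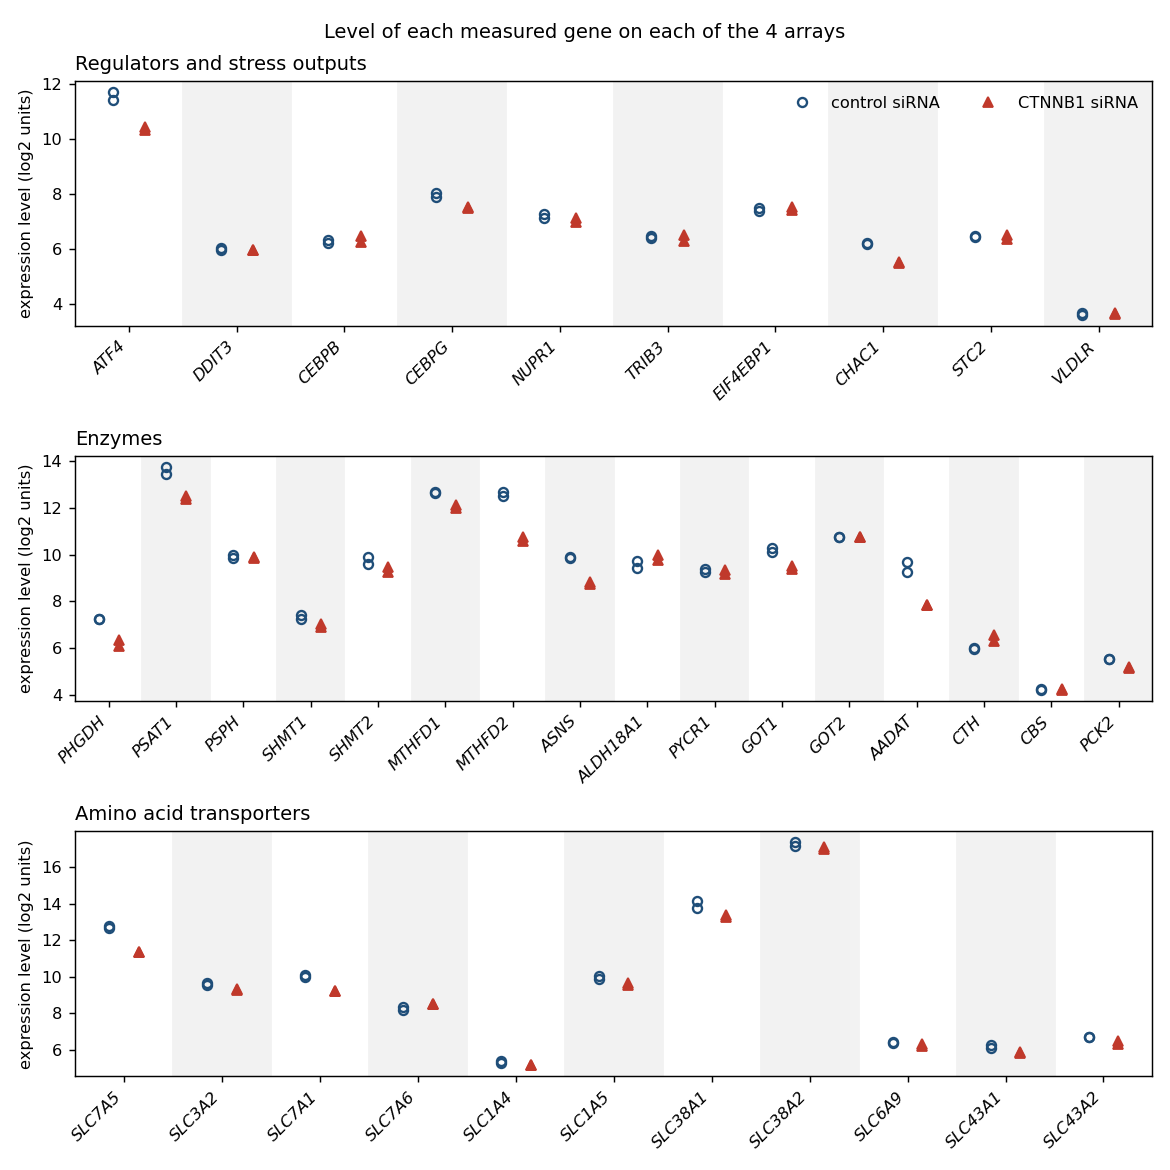
Expression level in log2 units (vertical axis) of each of the 37 measured genes on each array, with control siRNA as open circles and CTNNB1 siRNA as filled triangles (2 arrays per group). The groups stand apart for ATF4, MTHFD2, PSAT1, ASNS, AADAT and SLC7A5, and coincide for DDIT3, TRIB3, STC2 and GOT2. Levels of different genes are not comparable on this scale.

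The promoter windows of the members were searched for the composite element to which ATF4 and C/EBP proteins bind, since ASNS and CHAC1 are well known users of it. RefSeq promoters (GRCh38.p14) were at hand for 33 of the 39 members, and the 250 bases before each annotated start were read. The element TGATGNAAN was found on either strand before a start of 6 members, ASNS, CHAC1, GOT1, CEBPG, SLC1A5 and the unmeasured MTHFD1L. All 5 of these that were measured were called lower, within a set where 18 of the 35 tested members (51.4%) were. Of these 5 calls, that of SLC1A5 was lost under 5 alternatives, among them quantile normalization (adjusted p 0.065 in limma). The narrower TTGCATCA, which is the reverse complement of a part of TGATGNAAN and so overlaps it, was found in the same genes except ASNS. Of all 27305 genes with a RefSeq promoter, 3.87% held the first motif before a start and 0.967% the second, and of all single promoters 3.13% and 0.772%. Among all tested genes with a promoter window, 15.5% of the 283 with TGATGNAAN were called lower, and 18.0% of the 10843 without it. A match is only a description of the letters, and elements outside these windows were not searched for.

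The windows of the 5 measured genes with a match, and of MTHFD2, the member with the largest fall, are shown 5′ to 3′ on the strand of the gene, with the match in capitals. That of ASNS is chr7:97872409-97872658 on the minus strand, with 59 bases between the match and the start. That of CHAC1 is chr15:40953221-40953470 on the plus strand, and that of GOT1 is chr10:99430625-99430874 on the minus strand. In these 2 windows the capitals are the reverse complement of the motif. The window of CEBPG, chr19:33373863-33374112 on the plus strand, belongs to the later of its annotated starts. SLC1A5 has chr19:46784815-46785064 on the minus strand. MTHFD2 has chr2:74198365-74198614 on the plus strand and no match in it.
ASNS: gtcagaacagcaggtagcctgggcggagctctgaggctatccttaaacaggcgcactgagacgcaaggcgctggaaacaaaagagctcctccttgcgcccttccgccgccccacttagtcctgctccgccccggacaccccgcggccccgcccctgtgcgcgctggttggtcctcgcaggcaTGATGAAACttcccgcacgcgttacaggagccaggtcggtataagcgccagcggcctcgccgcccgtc
CHAC1: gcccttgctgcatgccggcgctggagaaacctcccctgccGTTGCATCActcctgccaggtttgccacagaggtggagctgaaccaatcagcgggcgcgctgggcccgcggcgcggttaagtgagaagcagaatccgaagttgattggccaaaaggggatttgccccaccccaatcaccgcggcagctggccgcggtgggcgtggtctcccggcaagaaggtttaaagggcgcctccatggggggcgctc
GOT1: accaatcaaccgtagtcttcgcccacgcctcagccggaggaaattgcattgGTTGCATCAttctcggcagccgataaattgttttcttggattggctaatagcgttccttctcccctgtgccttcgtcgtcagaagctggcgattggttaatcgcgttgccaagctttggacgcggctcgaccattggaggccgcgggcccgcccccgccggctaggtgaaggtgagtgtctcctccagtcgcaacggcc
CEBPG: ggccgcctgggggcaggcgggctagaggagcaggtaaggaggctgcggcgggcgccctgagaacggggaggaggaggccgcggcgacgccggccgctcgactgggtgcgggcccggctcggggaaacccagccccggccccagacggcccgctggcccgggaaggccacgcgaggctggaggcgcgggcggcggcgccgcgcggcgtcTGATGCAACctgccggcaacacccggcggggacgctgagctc
SLC1A5: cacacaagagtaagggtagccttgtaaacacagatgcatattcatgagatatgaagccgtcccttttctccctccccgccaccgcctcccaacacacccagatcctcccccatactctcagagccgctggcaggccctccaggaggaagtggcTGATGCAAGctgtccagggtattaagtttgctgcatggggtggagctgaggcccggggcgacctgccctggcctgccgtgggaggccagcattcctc
MTHFD2: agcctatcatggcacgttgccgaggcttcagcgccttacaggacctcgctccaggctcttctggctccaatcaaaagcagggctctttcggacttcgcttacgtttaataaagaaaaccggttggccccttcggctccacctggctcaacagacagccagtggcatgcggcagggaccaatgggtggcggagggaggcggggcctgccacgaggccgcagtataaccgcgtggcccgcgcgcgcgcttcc

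Among the 7 regulators, ATF4 and its dimer partner CEBPG fell (28.6%, against 16.1% of all tested genes), and the 5 others were not called. ATF4, on chromosome 22, stood at 11.69 and 11.40 log2 units in the control arrays and at 10.44 and 10.31 in the CTNNB1 siRNA arrays. The groups did not overlap, and the gap between them exceeded the spread within either. The fall of ATF4 was 1.17 log2 units, written as a change of -1.17 (SE 0.12, 95% interval -1.47 to -0.87), and the fold difference was 2.25 (adjusted p 0.0017 in limma). CEBPG, a C/EBP family protein that pairs with ATF4 and whose promoter window is shown above, went from 7.87 and 8.02 to 7.48 and 7.51 log2 units. It fell by 0.45 (SE 0.09, adjusted p 0.013 in limma).

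DDIT3, which encodes CHOP, read 6.04 and 5.95 log2 units with control siRNA and 5.95 and 5.94 with CTNNB1 siRNA. Its groups met at 5.95, and its change was -0.05 log2 units with a 95% interval from -0.25 to 0.15. TRIB3, a pseudokinase induced by ATF4 and CHOP that feeds back on them, read 6.40 and 6.46 log2 units in the controls and 6.50 and 6.28 after silencing. The CTNNB1 siRNA arrays lay on either side of the controls, and the interval of the change ran from -0.29 to 0.21 log2 units. The intervals of both genes leave out a fall of the size measured for ATF4, but the difference between the genes was not itself tested. CEBPB, the stress-induced chromatin protein gene NUPR1 and EIF4EBP1, which encodes a repressor of cap-dependent translation, had changes of 0.105, -0.15 and 0.04 log2 units, and the groups overlapped for each.

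Of the 3 stress outputs, CHAC1 fell. CHAC1, an enzyme that breaks down glutathione, read 6.20 and 6.18 log2 units in the controls and 5.50 and 5.51 after CTNNB1 siRNA, with little spread in either group. CHAC1 fell by 0.69 log2 units (SE 0.07), a 1.61-fold difference (adjusted p 0.0020 in limma). STC2, a secreted glycoprotein, had the same mean of 6.44 log2 units in both groups (95% interval of the change -0.21 to 0.21). VLDLR, a lipoprotein receptor, lay between 3.60 and 3.68 log2 units on all arrays, below the level filter, and was not tested.

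**Figure D2:**
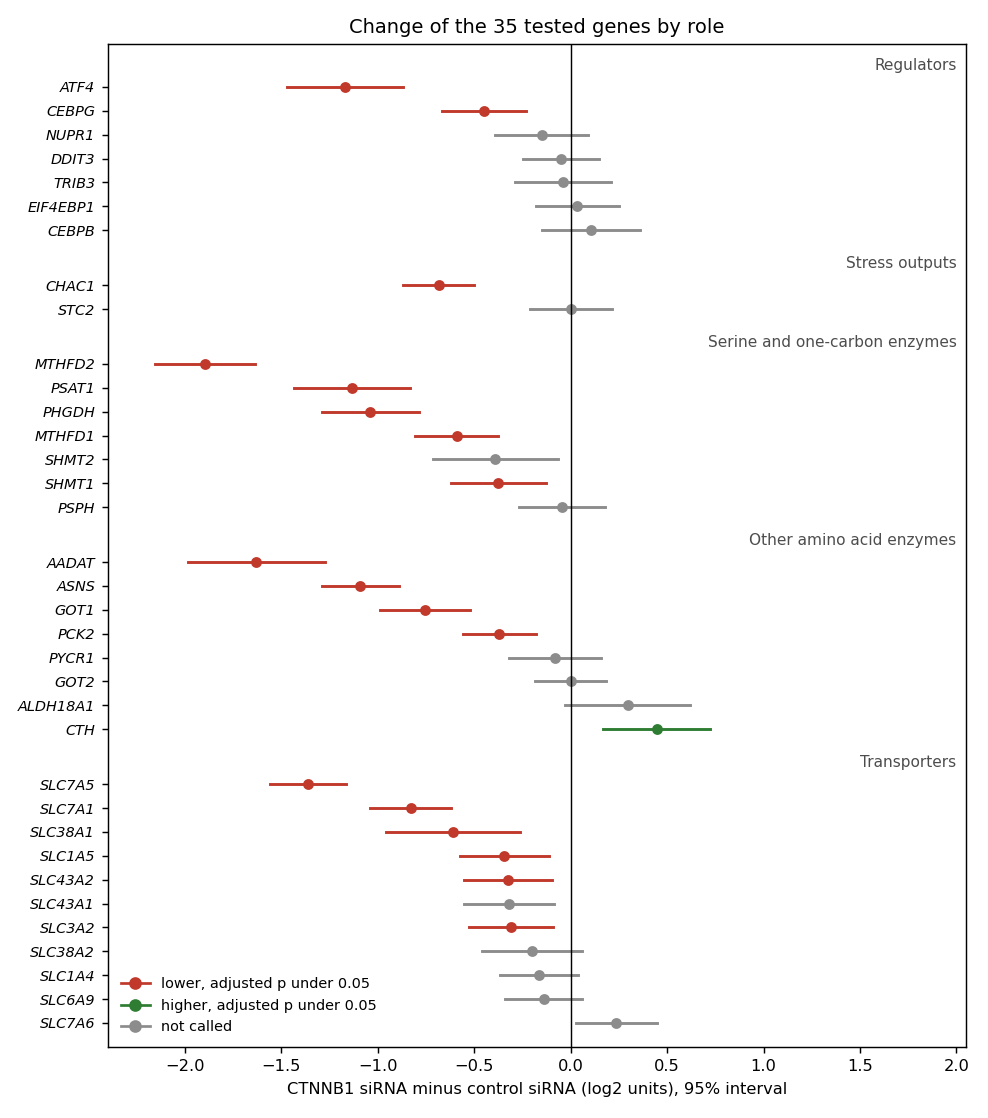
Change in log2 units (horizontal axis, CTNNB1 siRNA minus control siRNA) of each of the 35 tested genes with its 95% interval from limma, by role. The points called lower (18) and higher (1) are coloured, and MTHFD2 has the largest fall, 1.90 log2 units.

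The genes of the first and the second step of serine synthesis fell, and that of the third was not called. PHGDH, which takes a glycolytic intermediate into the pathway, read 7.25 and 7.26 log2 units in the controls and 6.10 and 6.33 after CTNNB1 siRNA. PSAT1, the aminotransferase of the second step, read 13.75 and 13.46 in the controls and 12.54 and 12.40 after silencing. Both silenced arrays lay below both controls for each gene. PHGDH fell by 1.04 log2 units (SE 0.10), a 2.06-fold difference (adjusted p 0.0015 in limma). PSAT1 fell by 1.14 (SE 0.12), a 2.20-fold difference (adjusted p 0.0019 in limma). PSPH, the phosphatase that releases serine, read 10.00 and 9.84 log2 units in the controls and 9.90 and 9.85 after silencing. The PSPH arrays overlapped, with a change of -0.05 log2 units (95% interval -0.27 to 0.18). PSPH has a closely similar pseudogene, whose RNA an array may mix with it.

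Of the folate enzymes that carry serine-derived carbon, MTHFD2 changed most. MTHFD2, a mitochondrial dehydrogenase and cyclohydrolase that is low in most adult tissues and high in many tumours, read 12.68 and 12.50 log2 units in the controls and 10.61 and 10.78 after CTNNB1 siRNA. The gap between the groups was far wider than the spread within them. MTHFD2 fell by 1.90 log2 units (SE 0.10, 95% interval -2.16 to -1.64), a 3.72-fold difference (adjusted p 0.00041 in limma). MTHFD1, the cytosolic enzyme of the same reactions, read 12.64 and 12.71 in the controls and 12.02 and 12.15 after silencing. It fell by 0.59 (SE 0.09, adjusted p 0.0052 in limma), and its groups did not overlap. SHMT2, the mitochondrial enzyme that splits serine into glycine, read 9.62 and 9.92 in the controls and 9.28 and 9.48 after silencing. SHMT2 lay lower in both silenced arrays but was not called, with a change of -0.39 log2 units (SE 0.13) and an adjusted p of 0.075 in limma. SHMT1, its cytosolic counterpart, fell by 0.38 (SE 0.10, adjusted p 0.037 in limma). That call was lost under 2 alternatives, among them arrays shifted to a common median (adjusted p 0.068). In all, 5 of the 7 tested serine and folate enzymes fell (71.4%, against 16.1% of all tested genes) and none rose. Their median change was -0.59 log2 units.

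Of the 8 other tested enzymes 4 fell (50.0%) and 1 rose (12.5%), against 16.1% and 14.2% of all tested genes. Their median was -0.225 log2 units, and AADAT and ASNS had the largest falls among them. ASNS, which makes asparagine and is a classical reporter of ATF4, read 9.90 and 9.86 log2 units in the controls and 8.74 and 8.84 after CTNNB1 siRNA. Its groups were more than 1 log2 unit apart. ASNS fell by 1.09 (SE 0.08, 95% interval -1.29 to -0.89), which is 2.13-fold (adjusted p 0.00077 in limma). AADAT, a mitochondrial aminotransferase of lysine and tryptophan breakdown, read 9.68 and 9.27 in the controls and 7.83 and 7.86 after silencing. The AADAT controls differed by more than those of any other member, and still stood above both silenced arrays. AADAT fell by 1.63 (SE 0.14), a 3.10-fold difference (adjusted p 0.0011 in limma).

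Of the aspartate aminotransferases, GOT1 fell and GOT2 was not called. GOT1, the cytosolic form, read 10.29 and 10.13 log2 units in the controls and 9.51 and 9.40 after silencing, and fell by 0.755 (SE 0.09, adjusted p 0.0031 in limma). GOT2, the mitochondrial form, read 10.77 and 10.78 in both groups. The 95% interval of GOT2 ran from -0.19 to 0.19 log2 units and that of GOT1 from -0.99 to -0.52, and the difference between the 2 genes was not itself tested. PCK2, the mitochondrial enzyme that makes phosphoenolpyruvate, fell by 0.37 (SE 0.08, adjusted p 0.016 in limma). The proline enzymes ALDH18A1 and PYCR1 were not called, with changes of 0.295 (SE 0.13) and -0.08 (SE 0.10) log2 units, although both silenced arrays lay above both controls for ALDH18A1.

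CTH was the only member that rose. This enzyme, which makes cysteine from cystathionine, read 5.97 and 5.98 log2 units in the controls and 6.28 and 6.56 after CTNNB1 siRNA. It rose by 0.445 (SE 0.11, adjusted p 0.031 in limma). The call was lost under 2 alternatives, among them arrays shifted to a common median (adjusted p 0.059). CBS, the enzyme before it, lay between 4.20 and 4.24 log2 units on all arrays, just below the level filter, and was not tested. CBS also has a nearly identical annotated copy.

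Of the 11 amino acid transporters 6 fell (54.5%, against 16.1% of all tested genes), none rose and 5 were not called. For 10 of them (90.9%) both CTNNB1 siRNA arrays lay below both controls, against 34.2% of all tested genes. For SLC7A6 both lay above. SLC7A5, the light chain of the LAT1 exchanger that brings in leucine and other large neutral amino acids, read 12.75 and 12.66 log2 units in the controls and 11.34 and 11.35 after silencing. The 2 silenced arrays nearly coincided. SLC7A5 fell by 1.36 (SE 0.08, 95% interval -1.56 to -1.16), a 2.57-fold difference (adjusted p 0.00043 in limma). SLC3A2, the heavy chain that carries SLC7A5 and its relatives to the cell surface, read 9.68 and 9.55 in the controls and 9.35 and 9.26 after silencing. It fell by only 0.31 (SE 0.09, adjusted p 0.047 in limma), and this call was lost under 4 alternatives, among them quantile normalization (adjusted p 0.095). SLC7A6, another light chain for the same partner, had a change of 0.235 log2 units (SE 0.08) and was not called (adjusted p 0.092 in limma).

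SLC7A1, the carrier of arginine and lysine, read 10.11 and 9.98 log2 units in the controls and 9.23 and 9.20 after silencing. It fell by 0.83 (SE 0.08), a 1.78-fold difference (adjusted p 0.0016 in limma). SLC38A1, a sodium-coupled importer of glutamine, read 14.12 and 13.73 in the controls and 13.28 and 13.35 after silencing. The SLC38A1 controls had an SD of 0.276 log2 units (n = 2), and it fell by 0.61 (SE 0.14, adjusted p 0.023 in limma). Leaving out 1 array gave changes from -0.805 to -0.415. SLC38A2, the paralog that amino acid starvation induces, read 17.34 and 17.14 in the controls and 16.97 and 17.11 after silencing. It was not called, with a change of -0.20 log2 units (95% interval -0.46 to 0.06). SLC1A5, the glutamine exchanger ASCT2, read 10.03 and 9.86 in the controls and 9.56 and 9.64 after silencing. It fell by 0.345 (SE 0.09, adjusted p 0.039 in limma), a call lost under 5 alternatives, among them quantile normalization (adjusted p 0.065).

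The 4 remaining carriers differed by less than 1.5-fold between the groups. SLC43A2, an exporter and importer of neutral amino acids, fell by 0.325 log2 units (SE 0.09, adjusted p 0.046 in limma). Its paralog SLC43A1 had a change of almost the same size, -0.32 log2 units (SE 0.09), and just missed the threshold (adjusted p 0.0502 in limma). The call of SLC43A2 was lost under 3 alternatives, among them no level filter (adjusted p 0.060), and SLC43A1 was called under 4 alternatives, among them a level filter at the 50th percentile (adjusted p 0.043). The serine and alanine exchanger SLC1A4 and the glycine carrier SLC6A9 had changes of -0.165 and -0.14 log2 units and were not called.

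Of 22 genes outside the members for the eIF2 kinases, eIF2, its exchange factor eIF2B and its phosphatases, 5 rose (22.7%) and 3 fell (13.6%), and the median change was 0.08 log2 units. These shares lay near those of all tested genes, of which 14.2% rose and 16.1% fell. EIF2AK2, the kinase for double-stranded RNA, rose by 0.925 (SE 0.08). EIF2AK4, the kinase GCN2 that senses uncharged tRNA, rose by 0.85 (SE 0.13), and EIF2AK3, the endoplasmic reticulum kinase PERK, by 0.755 (SE 0.10). PPP1CC, a catalytic subunit of the phosphatases, fell by 0.88 (SE 0.10). Named after its value was seen, EIF2AK1, the kinase of heme shortage and mitochondrial stress, fell by 0.335 (SE 0.09), a call lost under 2 alternatives, among them arrays shifted to a common median (adjusted p 0.077). EIF2B1, a subunit of the exchange factor that was also named afterwards, fell by 0.67 (SE 0.09), and the other eIF2B subunits were not called. In limma the adjusted p-values of the called genes named here were between 0.0011 and 0.033.

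Of 21 tested further ATF4 targets and ATF family genes 5 rose (23.8%, against 14.2% of all tested genes) and 4 fell (19.0%, against 16.1%), with a median of 0.075 log2 units. SLC7A11, the cystine importer, read 11.96 and 11.40 log2 units in the controls and 13.76 and 13.46 after CTNNB1 siRNA, higher on both silenced arrays. It rose by 1.93 (SE 0.20, adjusted p 0.0018 in limma). NARS1, which charges tRNA with asparagine, had a change of -1.5 log2 units (SE 0.13) and fell, as did GDF15, a stress cytokine, at -1.62 (SE 0.12) and KLHL24 at -1.69 (SE 0.20). Named after their values were seen, ATF6, the sensor of another branch of the unfolded protein response, rose by 1.36 log2 units (SE 0.08), and HERPUD1, which serves degradation at the endoplasmic reticulum, by 1.01 (SE 0.14). The adjusted p-values of these 6 genes lay between 0.00041 and 0.0038 in limma. Also named afterwards, XPOT rose by 0.625 (SE 0.08, adjusted p 0.0028 in limma) and ATF3 by 0.56 (SE 0.11, adjusted p 0.014 in limma). No other rise was called in this list.

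Of 24 tested further genes for serine, glycine, folate and methyl group metabolism, 9 fell (37.5%) and 5 rose (20.8%). Over all tested genes 16.1% fell and 14.2% rose. The median of this list was -0.218 log2 units. PPAT, which commits ribose phosphate to purine synthesis, fell by 1.97 (SE 0.12) and MAT2B, a subunit of the S-adenosylmethionine synthetase, by 1.12 (SE 0.14). MAT2A, another subunit of that synthetase and named after its value was seen, rose by 0.98 (SE 0.17), a call lost under an alternative. SFXN3, a mitochondrial serine carrier, rose by 1.33 (SE 0.09) and DLD, the shared dehydrogenase of the glycine cleavage system, by 1.13 (SE 0.11). Among 19 tested further amino acid enzymes 3 fell (15.8%, near the 16.1% of all tested genes) and 1 rose (5.26%, against 14.2%). Their median was -0.01 log2 units. GLUL, glutamine synthetase, fell by 0.96 (SE 0.09) and the arginase gene ARG2 by 0.79 (SE 0.09), ODC1, the first enzyme of polyamine synthesis, fell by 0.39 (SE 0.10), and OAT, ornithine aminotransferase, rose by 1.07 (SE 0.15). Among 19 tested further amino acid transporters 4 fell and 4 rose (21.1% each, against 16.1% and 14.2% of all tested genes). Their median was -0.085 log2 units. SLC25A12, a mitochondrial aspartate carrier, rose by 0.89 (SE 0.08) and SLC38A6 by 0.475 (SE 0.10), and SLC43A3 and SLC36A4 fell by 0.865 (SE 0.13) and 0.535 (SE 0.09). Every gene named in these 3 lists had an adjusted p between 0.00046 and 0.031 in limma.

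**Figure D3:**
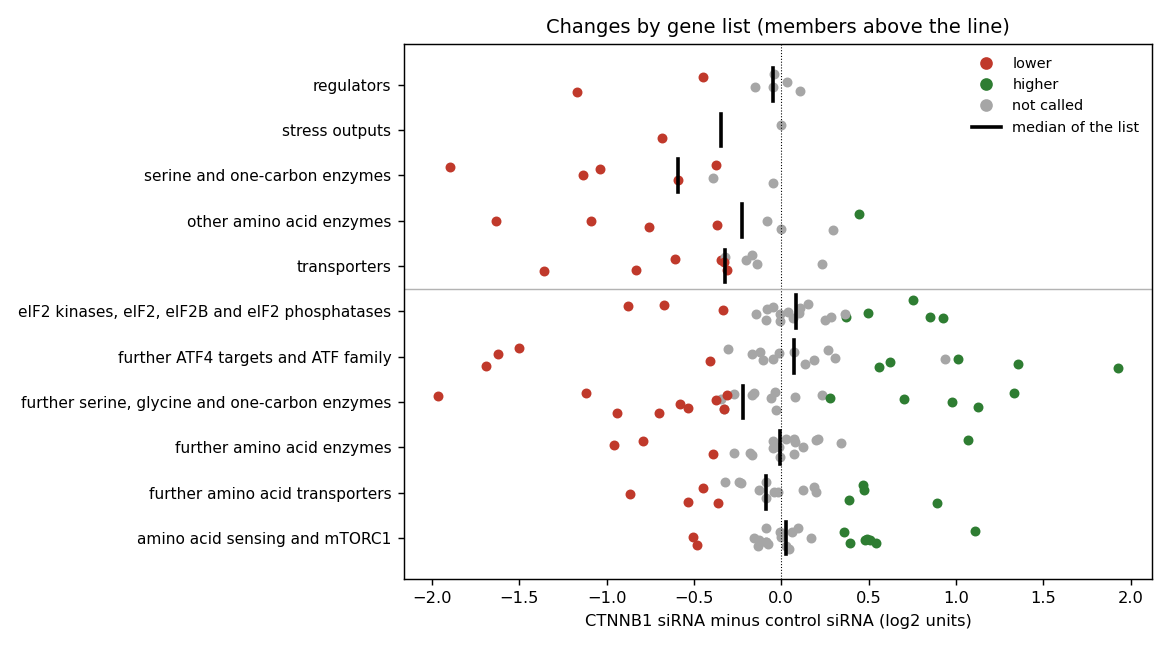
Change in log2 units (horizontal axis, CTNNB1 siRNA minus control siRNA) of each tested gene, 1 point per gene, by list, with called genes coloured and the median of a list as a black bar. The 5 lists of members are above the line, with serine and folate enzymes at a median of -0.59, and the 6 lists of other genes are below it, with medians between -0.218 and 0.08.

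**Figure D4:**
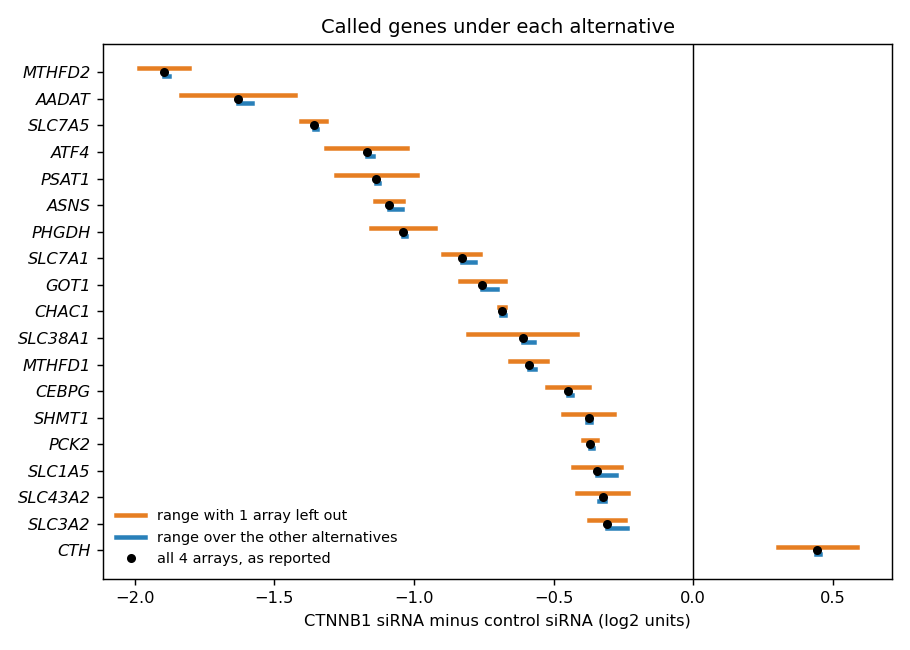
Change in log2 units (horizontal axis) of the 19 called members with all 4 arrays (points), its range with 1 array left out (upper bars) and its range over the other alternatives (lower bars). All ranges stay on 1 side of 0, and that of AADAT is the widest with 1 array left out, from -1.835 to -1.425.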

How the data were processed

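Each sample's total RNA was biotin-labelled and put on its own Affymetrix whole-transcript array, per the labels' protocols. The authors deposited log2 levels for transcript clusters, made with Affymetrix Expression Console and RMA, per the submitters' processing notes. The kind of RMA, the tools' versions and the build were not given in the sources used here. Fold changes hold for the deposited scale, which runs up to 19.93.

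Of 67528 clusters, 23781 had 1 symbol in the platform annotation, updated through RefSeq (GRCh38.p14). The 15679 genes with a mean above the 30th percentile (4.29) were tested with limma 3.58.1 in R 4.3.3 (lmFit, eBayes, 2 groups, no block, 2-sided, Benjamini-Hochberg over all tested genes, threshold 0.05). P-values measure the spread between these samples, which may be technical. An exact permutation test of 2 against 2 arrays cannot go below p = 0.33. Tested on simulated data of these 15679 genes, with independent noise and 200 genes changed, the fit found 88.1% of those changed 1.5-fold. Unchanged genes made up 5% of its calls there. In the deposited data 30.3% of genes were called, so this 5% is not the error rate of the reported calls.

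The members, lists and tests were chosen with earlier results of these data known. Array values are printed for 14 members fixed by name and for members called with a fold of at least 1.5. Outside this rule they are also printed for CEBPG, CTH and GOT2. From each further list up to 4 called genes of largest change are named, and genes named after their values were seen are marked so. Alternatives were normalizations, level filters, a variance trend, averaged clusters, a replicate block and each array left out. Python 3.11.15 with matplotlib 3.10.9 drew the figures.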

Additional observations from a re-analysis of the deposited data

How the results depend on the processing

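The count of members called lower was 18 as reported and between 14 and 19 under the 7 alternatives that kept all arrays, and that of all called genes between 3898 and 4818. The 1 member called higher, CTH, was lost with arrays shifted to a common median (0 called) and with the replicate block (0 called, against 2 members higher at an unadjusted p under 0.05 in limma). With the replicate number as a block, 16 members were called lower. SHMT2 and SLC43A1 were gained under the block (adjusted p 0.043 and 0.0497 in limma), SHMT1, SLC1A5, SLC38A1, SLC43A2 and CTH were lost, and the other calls of members were the same. Arrays of the same number deviated from their group means together with r = 0.271 across genes, from 2 pairs, and the labels do not say that a number marks a shared culture or day. With 1 array left out, all called genes ranged from 0 to 0, as did members called higher and lower, while between 14 and 17 members were lower at an unadjusted p under 0.05 in limma, with 1 residual degree of freedom left and the lone array assumed to vary like the other group. The CTNNB1 change then lay between -3.63 and -3.48 log2 units, with adjusted p-values of 0.055 to 0.076. Directions turned only for members that were not called. PSPH had a change of 0.014 log2 units under quantile normalization. With 1 array left out, PSPH lay between -0.125 and 0.035, TRIB3 between -0.15 and 0.07, EIF4EBP1 between -0.02 and 0.09 and PYCR1 between -0.165 and 0.005. The median of the regulators was -0.15 without CTNNB1 siRNA replicate 1, and that of the other amino acid enzymes was -0.08 with the 50th percentile filter. The cause of these differences was not tested. No call was lost under any of the 7 for ATF4, CEBPG, CHAC1, PHGDH, PSAT1, MTHFD1, MTHFD2, ASNS, GOT1, AADAT, SLC7A5 and SLC7A1. PCK2 was left untested by the 50th percentile filter and was called under the 6 others.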

Other observations

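Of 23 tested genes that sense amino acids and pass the signal to the growth kinase complex mTORC1, 7 rose (30.4%, against 14.2% of all tested genes), 2 fell (8.7%, against 16.1%) and 14 were not called, with a median of 0.03 log2 units. RRAGD, a GTPase that recruits mTORC1 to the lysosome, read 7.83 and 8.03 log2 units in the control arrays and 8.93 and 9.15 after CTNNB1 siRNA, and rose by 1.11 (SE 0.12, adjusted p 0.0018 in limma). RPS6KB1, the S6 kinase downstream of the complex, rose by 0.545 (SE 0.08), and FNIP1, a partner of folliculin, by 0.51 (SE 0.08). DEPDC5, a subunit of the inhibitor GATOR1, fell by 0.505 (SE 0.09). In limma the adjusted p-values of the last 3 were between 0.0051 and 0.0089.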
